A study of Mus musculus with 3 samples.

Results

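In the retina of 11-day-old mice (P11), 459 horizontal cells carried the highest summed level of 3 transcripts that mark younger neurons, Nnat, Gap43 and Marcksl1. They were compared with 1217 horizontal cells of the same library in which none of the 3 transcripts was counted. The cells came from a library of 5517 barcodes, of which 4587 were taken as horizontal cells. A barcode was taken when it had at least 1000 detected genes, at most 10% of its counts from mitochondrial genes, a count of at least 2 of the transcription factor genes Lhx1, Onecut1 and Onecut2, and at least 5000 unique molecular identifiers (UMIs, which count captured transcripts and not their PCR copies). The summed UMIs of Nnat, Gap43 and Marcksl1 per 1000000 UMIs of the cell then ranked the cells, and the top 10% are called high cells here, the cells with none 0-UMI cells. The other 2911 horizontal cells lay between them. Over the whole series the same rule took 13805 of 20048 barcodes as horizontal cells, of which 6214 were from P6 and 3004 from P8.

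The study sorted horizontal cells from retinas of mice of the genotype Cx57icre;Ai14 at P6, P8 and P11, with 1 library per age. Cx57icre is a Cre recombinase transgene that uses the connexin 57 gene, which in the retina is active in horizontal cells, and Ai14 is a reporter that turns red once Cre has acted, so both alleles were present in every cell compared. Retinas were loosened with papain, red cells were sorted by flow cytometry and RNA was read from the 3' end with 10x Genomics droplets. High and 0-UMI cells were groups of cells within 1 library with no replicate, so no test and no p-value is given, and each interval covers counting error at 95% and nothing else.

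Horizontal cells of the outer retina feed inhibition back onto photoreceptor terminals. In the mouse they settle, extend processes and form these contacts during the postnatal weeks. Growing neurons make much tubulin and many proteins that remodel microtubules, actin and the membrane of the growth cone. Gap43 encodes a membrane protein of growth cones, Marcksl1 a relative of the actin-binding kinase substrate Marcks, and Nnat neuronatin, a small membrane protein of the endoplasmic reticulum that is abundant in the developing nervous system.

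Most high cells bore the markers of horizontal cells, and a small number did not. Lhx1 stood at 764 counts per 1000000 UMIs (CPM) in high cells and 770 in 0-UMI cells, Onecut1 at 673 and 633 CPM, and Onecut2 at 858 and 857 CPM. These 3 genes were part of the selection. Prox1, a transcription factor gene of horizontal cells that was not, stood at 1262 and 1343 CPM (ratio 0.940, 0.901 to 0.981), and Calb1, which encodes the calcium buffer calbindin, at 2552 and 2985 CPM (ratio 0.855, 0.830 to 0.880).

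However, 9 of the 4587 cells held at least 5 UMIs each of Rbpms and Slc17a6, which mark retinal ganglion cells, and all 9 were high cells. They filled 6 of the 10 highest ranks. Their Rbpms counts ran from 16 to 28 UMIs with a median of 21, against at most 1 UMI in any of the other 450 high cells. Pou4f2, a ganglion cell transcription factor gene, was counted in each of the 9 cells, and Lhx1 was at 0 in 6 of them. In 2 of the 9 cells ganglion and horizontal genes were both plentiful, one with 18 Rbpms and 14 Lhx1 UMIs and the other with 23 and 25. The 9 cells were deep, with a median of 32691 UMIs, against 21278 over all high cells.

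At a wider limit, 22 of the 459 high cells (4.79%) and 13 of the 1217 0-UMI cells (1.07%) carried at least 3 marker genes of another cell class. Of the 22, 14 met it for ganglion, 8 for amacrine, 5 for bipolar, 2 for rod and 1 for Müller glia markers, some for more than 1 class. The main ratios below are therefore given also after all such cells were left out and the ranking was repeated. That repeat had 451 high and 1204 0-UMI cells of 4509, and 437 of the 451 had been high cells before. In it Prox1 had a ratio of 0.962 (0.922 to 1.004) and Calb1 of 0.885 (0.860 to 0.912).

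**Figure D1:**
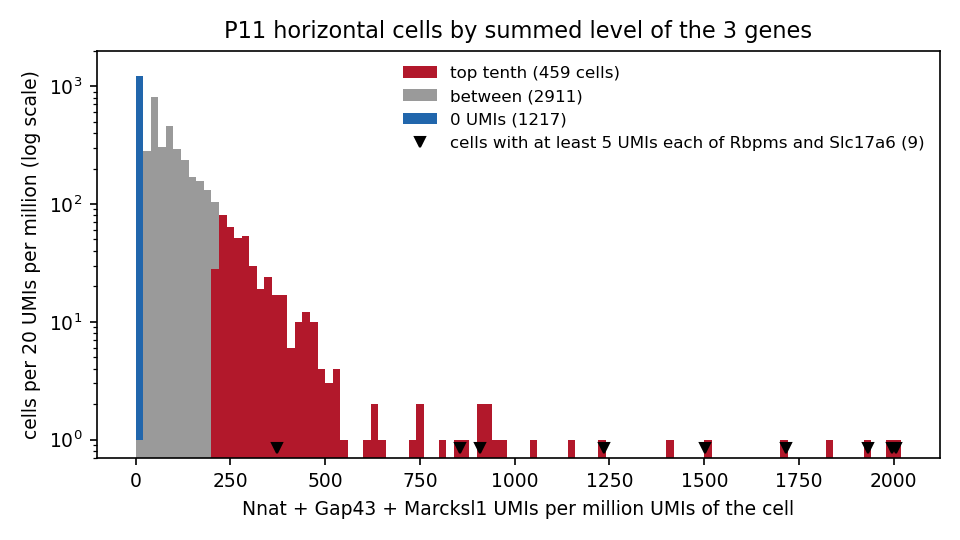
P11 horizontal cells by the summed UMIs of Nnat, Gap43 and Marcksl1 per 1000000 UMIs of the cell (x axis, bins of 20), with the number of cells on a log axis, for high cells (red), cells between (grey) and 0-UMI cells (blue). Triangles mark the 9 cells with at least 5 UMIs each of Rbpms and Slc17a6, which ran from 374 to 2005 UMIs per 1000000, while the median high cell was at 281.

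The high cells were chosen by the level of the 3 genes, so these values describe the choice. Their summed level ran from 215 to 2005 UMIs per 1000000 with a median of 281, and the median high cell held 6 UMIs of the 3 genes. No gap set them apart. The cell just inside the limit had 4 such UMIs among 18643 and the cell just outside had 6 among 28017, which is 214.6 against 214.2 per 1000000. Nnat stood at 157 CPM and Gap43 at 177 CPM in high cells. Marcksl1 was scarce even there, at 13.2 CPM and in 61 of the 459 cells. Of the high cells, 380 (82.8%) held both Nnat and Gap43, 40 held Nnat alone of these, and 39 held Gap43 alone.

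Set against the ages, Nnat stood at 831, 321 and 43.9 CPM over all horizontal cells at P6, P8 and P11, Gap43 at 257, 155 and 46.6 CPM, and Marcksl1 at 167, 25.6 and 1.79 CPM. The high cells of P11 thus lay below the P8 average for Nnat and Marcksl1, and above it for Gap43. Age and library cannot be told apart here. As a gauge of free RNA, 38 P11 barcodes with 3 rod markers and none of the horizontal factors held no Gap43 UMI and 15 Nnat UMIs, 13 of them in 1 barcode, at a median of 2081 UMIs. Thinned to 1000 UMIs, 3.99% of the 4587 horizontal cells (3.44 to 4.60%) and 1 of the 38 rod-marked barcodes (2.63%, 0.0666 to 13.8%) held Nnat. For Gap43 the shares were 4.16% (3.604 to 4.78%) and 0% (0 to 9.25%). So few rod-marked barcodes set no close bound on free RNA.

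Nnat and Gap43 went together in these cells. When cells were ranked by Nnat alone, Gap43 stood at 88.0 CPM in the top 459 cells and 37.1 CPM in the 2183 cells without Nnat, a ratio of 2.37 (1.99 to 2.82), or 2.07 (1.72 to 2.48) without cells of other classes. Ranked by Gap43 alone, Nnat stood at 81.0 CPM in the top 459 cells and 37.8 CPM in the 2339 without Gap43, a ratio of 2.14 (1.80 to 2.55), or 1.96 (1.63 to 2.35) without cells of other classes. Marcksl1 was counted 20 times in the top 459 cells by Nnat and 6 times in the 2183 without it, a ratio of 15.9 (6.14 to 48.2), or 6.39 (1.95 to 22.4) from 8 and 6 UMIs without cells of other classes. By Gap43 its ratio was 6.62 (2.68 to 16.9), or 1.28 (0.132 to 6.403) from 2 and 8 UMIs without them. In the cells that held Marcksl1 itself, Nnat had a ratio of 2.9998 (2.33 to 3.81) and Gap43 of 3.05 (2.38 to 3.85) over the cells without it, or 2.11 (1.51 to 2.88) and 1.66 (1.15 to 2.34) without cells of other classes.

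The spread of Nnat and Gap43 over cells was also wider than counting alone gives. After thinning to 5000 UMIs, the variance of the count per cell beyond its mean, divided by the mean squared, is 0 for pure counting error. It was 1.35 for Nnat and 1.58 for Gap43 over the 4587 cells, and 0.996 and 1.14 without cells of other classes. Marcksl1 had 43.5, but -0.953 without cells of other classes, where its variance over its mean was 0.9956, so no spread beyond counting was seen there. Lhx1, Onecut1 and Onecut2, which choose the cells, had 0.085, 0.0982 and 0.0532. Over all horizontal cells of each age the measure for Nnat was 0.189 (P6), 0.797 (P8) and 1.35 (P11). Without cells of other classes it was 0.188, 0.739 and 0.996.

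Promoter sequences are shown for the genes that ranked the cells and had an entry, Nnat and Marcksl1, and for Cd200, a higher gene described below whose ratio hardly moved without cells of other classes. Of 15 genes looked up, namely the 3 that chose the cells and the 12 highest named below, 10 had a promoter in the RefSeq table for GRCm38.p6, and Gap43, Marcks, Tubb2b, Stmn1 and Arhgdig were without an entry. The 250 bases before the start of Nnat (chr2:157559828-157560077, plus strand), Marcksl1 (chr4:129513331-129513580, plus strand) and Cd200 (chr16:45409054-45409303, minus strand), each with a single listed start, read as follows, with capitals for GGGCGG, the core of a GC box.
Nnat: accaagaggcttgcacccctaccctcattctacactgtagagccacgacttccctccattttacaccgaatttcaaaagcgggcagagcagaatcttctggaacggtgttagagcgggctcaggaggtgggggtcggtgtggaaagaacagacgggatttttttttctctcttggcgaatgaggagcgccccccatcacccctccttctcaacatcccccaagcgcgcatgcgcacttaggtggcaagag
Marcksl1: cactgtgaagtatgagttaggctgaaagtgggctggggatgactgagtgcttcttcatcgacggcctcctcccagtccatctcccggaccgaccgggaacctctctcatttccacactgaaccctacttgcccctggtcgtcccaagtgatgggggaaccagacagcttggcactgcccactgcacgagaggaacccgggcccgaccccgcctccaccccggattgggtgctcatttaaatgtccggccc
Cd200: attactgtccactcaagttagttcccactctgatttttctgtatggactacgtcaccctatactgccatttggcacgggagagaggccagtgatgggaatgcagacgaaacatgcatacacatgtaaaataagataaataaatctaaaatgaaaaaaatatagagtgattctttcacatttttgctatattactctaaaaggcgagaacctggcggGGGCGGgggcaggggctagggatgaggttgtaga
Both strands were searched for 4 motifs. Of all 32851 listed promoters of this length, ATCGAT, which Onecut factors bind, lay in 0.728%, its variant ATTGAT in 6.72%, GGGCGG in 32.7% and TATAAA, the TATA box, in 12.4%. In these 3 windows the only match was 1 GGGCGG before Cd200. Of the other higher genes with a single listed start, Selenom had 1 TATAAA, Map1b 1 TATAAA and 1 GGGCGG, Ctxn1 2 GGGCGG and Lrrc4c no match. Cd200 was chosen for printing after its values were seen.

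Depth and RNA quality were close between the groups, apart from the nuclear RNA Malat1. High cells had a median of 21278 UMIs and 0-UMI cells 21182, and medians of 5395 and 5366 detected genes. The mitochondrial share had a median of 4.46% and 4.72%. Malat1, a long RNA kept in the nucleus, took a median of 1.49% of UMIs in high cells and 1.87% in 0-UMI cells. A limit on doublet scores was set at the expected 3.95% of 4943 barcodes, and with ties at the limit 230 barcodes met it. Of these, 13 were high cells (2.83% of the high cells), 166 were cells between (5.70%) and 51 were 0-UMI cells (4.19%). The scoring method's own threshold marked too few barcodes to have worked, so these shares set no bound on doublets. The libraries held 87939202 UMIs at P6, 65546590 at P8 and 105561999 at P11. P11 shared 8 barcodes with P8 and 15 with P6, and P8 shared 13 with P6.

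To compare all other genes at equal depth, each cell was thinned to 5000 UMIs and the counts were summed per group. A gene entered when the mean of its 2 levels was at least 50 CPM, and was counted when the groups lay at least 1.5-fold apart. Of 3685 genes, 19 (0.516%) passed 1.5-fold upwards in high cells and 15 (0.407%) downwards. Without cells of other classes the counts were 13 of 3681 genes (0.353%) and 15 (0.407%), of which 11 and 13 were the same genes. With another random thinning 14 of the 19 and 8 of the 15 came out again, among 20 and 14, and these runs differ only in the random draw. Ranked on the thinned counts, where ties made 1492 cells high and left 3095 for the comparison, so that both ranking and group size differed, 0 genes passed in either direction, and Tubb2b had a ratio of 1.41, Marcks 1.36 and Tmsb10 1.30. Among cells of at least 15000 UMIs, thinned to that depth and ranked on it, 4 genes passed upwards and 1 downwards.

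After Rbfox1, described further on, the 4 highest ratios were those of Marcks, Tubb2b, Stmn1 and Tmsb10, which all act on or build the cytoskeleton. Tubb2b (chr13:34126748-34130466, minus strand, mm10), a beta tubulin of young neurons, stood at 372 CPM in high cells and 169 CPM in 0-UMI cells, a ratio of 2.19 (2.001 to 2.404), and 2.22 (2.02 to 2.43) without cells of other classes. Its thinned count ran from 0 to 8 with a median of 2 in high cells, and from 0 to 6 with a median of 1 in 0-UMI cells, so single cells of the groups overlapped widely. Marcks (chr10:37133375-37138920, minus strand), the actin-binding kinase substrate of the membrane, stood at 142 and 61.6 CPM, a ratio of 2.30 (1.97 to 2.67), or 2.07 (1.77 to 2.42) without cells of other classes. Tmsb10, the actin monomer binder thymosin beta 10, stood at 643 and 352 CPM, a ratio of 1.82 (1.71 to 1.95), or 1.69 (1.58 to 1.81). Before thinning, the 9 Rbpms cells held 3.84%, 12.7% and 12.9% of the high cells' UMIs of these 3 genes. They were 9 of 459 cells but were deep, with a median of 32691 UMIs against 21278. Their share of the cells is therefore no like measure for these shares of UMIs.

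Stmn1 and Map1b, both of which act on microtubules, depended more on those cells. Stmn1, the tubulin-binding protein stathmin, stood at 234 CPM in high cells and 124 CPM in 0-UMI cells, a ratio of 1.89 (1.69 to 2.12) that was 1.58 (1.40 to 1.78) without cells of other classes. Its thinned count reached 20 in a high cell and 5 in a 0-UMI cell. Before thinning, the 9 Rbpms cells held 22.4% of the high cells' Stmn1 UMIs. Map1b, a microtubule-associated protein of growing axons, stood at 346 and 201 CPM, a ratio of 1.72 (1.57 to 1.88), and at 1.47 (1.33 to 1.62) without cells of other classes it was under the 1.5-fold limit.

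Rbfox1 (chr16:5885355-7411526, plus strand), which encodes a neuronal splicing factor, had the highest ratio of the 3685 genes that entered. It stood at 103 CPM in high cells and 32.7 CPM in 0-UMI cells, a ratio of 3.14 (2.59 to 3.82), or 2.13 (1.72 to 2.64) without cells of other classes. The median cell of both groups held no Rbfox1 UMI after thinning, and before thinning 10 high cells held 35.7% of the group's Rbfox1 UMIs. Mgat4c, of a family of sugar transferases that branch N-linked glycans, had a ratio of 1.72, and of 1.14 (0.933 to 1.38) without cells of other classes. Lrrc4c, the adhesion protein netrin-G ligand 1, likewise had ratios of 1.69 and 1.23 (1.05 to 1.44). Selenom, a selenoprotein of the endoplasmic reticulum, had 1.77 and 1.44 (1.17 to 1.77).

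Cd200, Ctxn1 and Ldha hardly moved when cells of other classes were left out. Cd200, a membrane glycoprotein of neurons that binds a receptor on myeloid cells, stood at 86.7 and 49.96 CPM, a ratio of 1.74 (1.44 to 2.08), or 1.71 (1.42 to 2.05) without them. Ctxn1, the neuronal membrane protein cortexin 1, stood at 249 and 151 CPM, a ratio of 1.66 (1.49 to 1.84), or 1.68 (1.51 to 1.87). Ldha, a subunit of lactate dehydrogenase, stood at 277 and 169 CPM, a ratio of 1.63 (1.48 to 1.80), or 1.64 (1.48 to 1.81). Arhgdig stood at 86.7 and 49.6 CPM, a ratio of 1.75 (1.45 to 2.10), or 1.56 (1.28 to 1.88). Blcap, within whose locus the Nnat gene lies, stood at 82.4 and 82.0 CPM (ratio 1.004, 0.845 to 1.19).

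**Figure D2:**
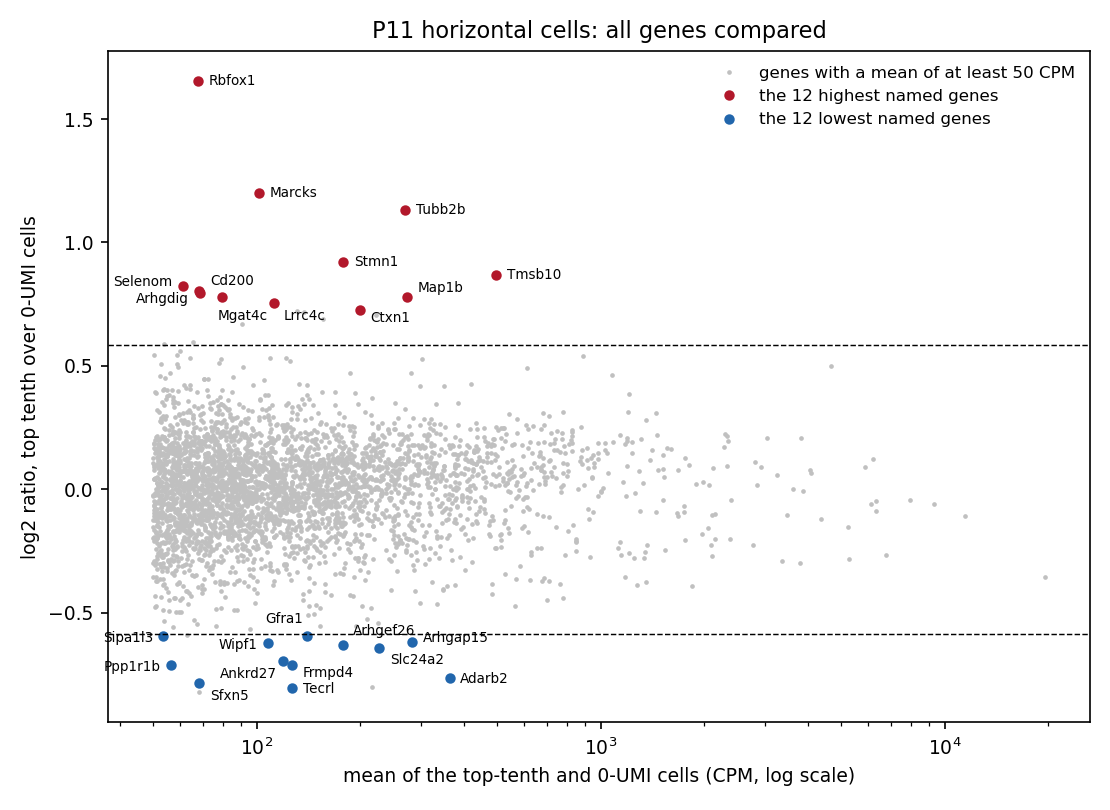
Log2 ratio of high over 0-UMI cells (y axis) against the mean level of both groups in CPM (x axis, log scale) for the 3685 genes that entered, each a grey point, with dashed lines at 1.5-fold. Named genes are red where higher and blue where lower in high cells, and most of them lie apart from the cloud on the higher side but close to the line on the lower side.

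**Figure D3:**
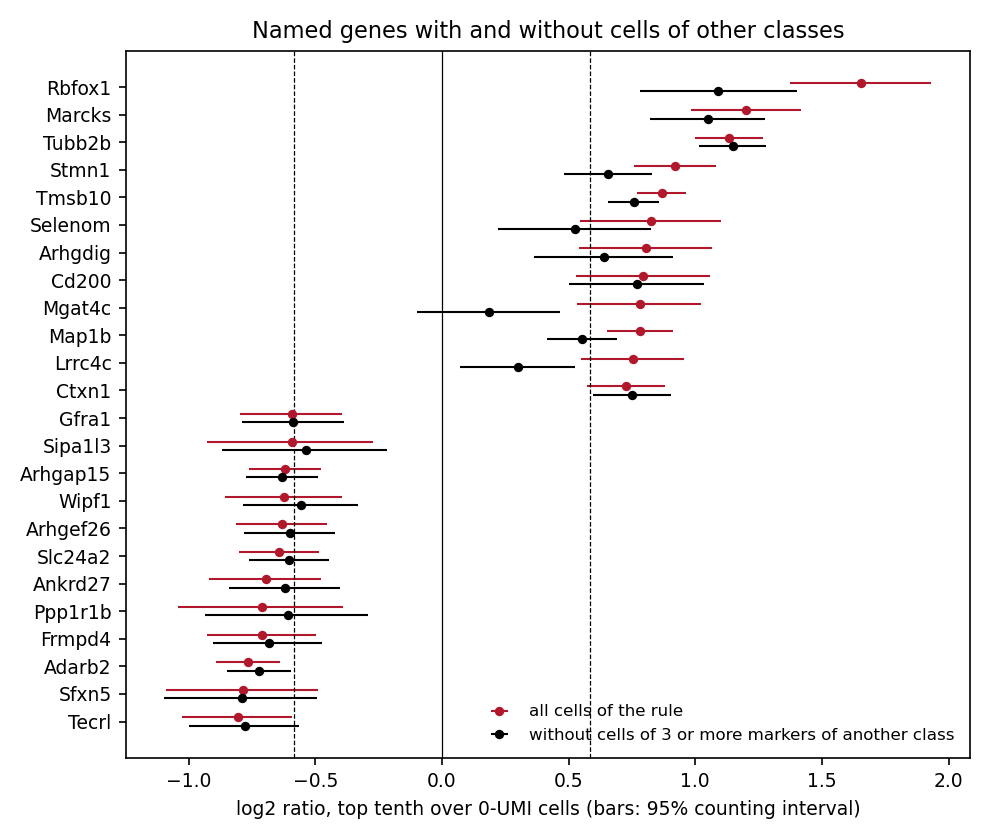
Log2 ratio of high over 0-UMI cells for the 24 named highest and lowest genes, with 95% counting intervals, for all cells of the rule (red) and without cells of 3 or more markers of another class (black). Rbfox1, Stmn1, Mgat4c and Lrrc4c move towards 0 without those cells, while Tubb2b, Cd200 and Ctxn1 and the lower genes stay close to their values.

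The lower side was nearer to the limit. Tecrl, a relative of an enoyl-CoA reductase of the endoplasmic reticulum, stood at 92.4 CPM in high cells and 162 CPM in 0-UMI cells, a ratio of 0.572 (0.491 to 0.664). Adarb2, of the RNA-editing adenosine deaminase family, stood at 270 and 459 CPM, a ratio of 0.588 (0.538 to 0.642), or 0.606 (0.555 to 0.661) without cells of other classes. Its thinned count had a median of 1 in high cells and 2 in 0-UMI cells. Sfxn5, a carrier of the mitochondrial inner membrane, stood at 50.1 and 86.3 CPM, a ratio of 0.581 (0.470 to 0.712).

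Among the other lower genes, Slc24a2, a sodium, calcium and potassium exchanger, stood at 178 and 277 CPM (ratio 0.641, 0.574 to 0.715), and Gfra1, a receptor subunit for the growth factor GDNF, at 112 and 169 CPM (0.663, 0.576 to 0.761). Frmpd4, a scaffold of postsynaptic densities, had a ratio of 0.611, as did Ppp1r1b, the phosphatase inhibitor DARPP-32. Ankrd27, Arhgef26, Arhgap15 and Sipa1l3, which each act on small GTPases, had ratios of 0.618, 0.645, 0.652 and 0.663, and Wipf1, an actin regulator, 0.650. Without cells of other classes, Wipf1 and Sipa1l3 were at 0.680 and 0.690, short of 1.5-fold.

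Between the extremes some of the differences formed steps. The 2911 cells between were split into 3 equal parts by the same summed level, which made 5 groups from 0 UMIs to the top. Tubb2b stood at 169, 187, 216, 268 and 372 CPM in these groups from low to high, and Marcks at 61.6, 72.7, 77.5, 89.3 and 142 CPM. Adarb2 stood at 459, 403, 384, 340 and 270 CPM. Of the 19 higher genes, 10 were higher at every step, and of the 15 lower genes, 6 were lower at every step, while 4.42% and 4.04% of all 3685 genes were so ordered. The first and last groups had chosen these genes, so only the order of the 3 parts between was free. The shares of all genes, which were not so chosen, are therefore no like comparison. Rbfox1 was also higher at every step, but most of its difference lay in the last, with 32.7, 35.6, 36.9 and 42.9 CPM over the first 4 groups and 103 CPM in high cells, which was 71.4 CPM without cells of other classes. Depth was not equal over the steps, with medians of 21182, 23169, 22784, 22556 and 21278 UMIs before thinning.

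**Figure D4:**
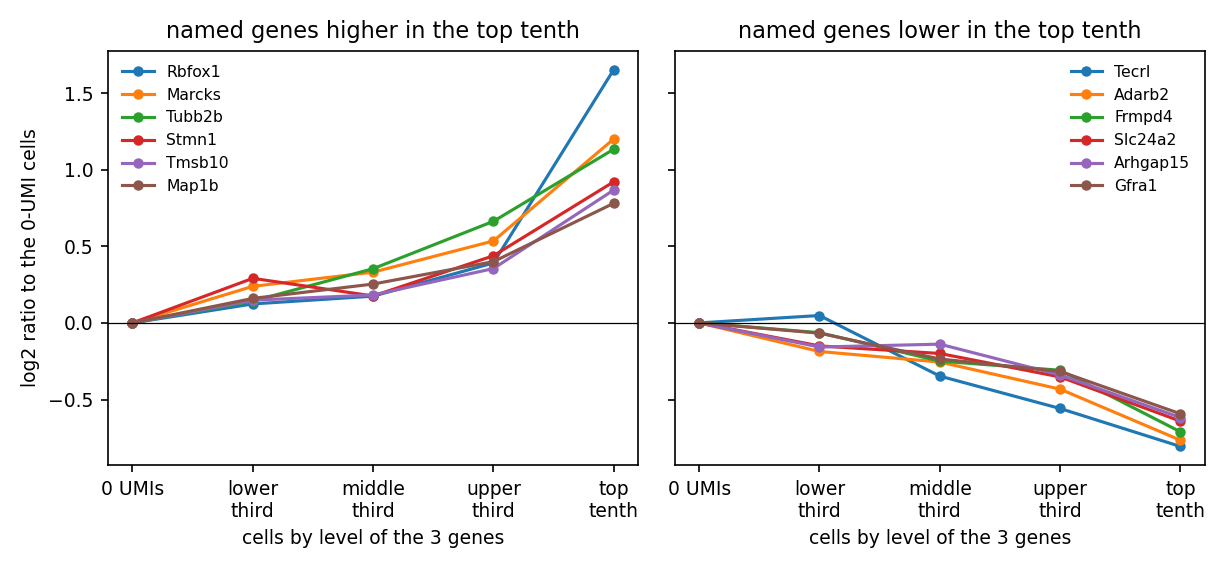
Log2 ratio to the 0-UMI cells (y axis) of 6 higher genes (left) and 6 lower genes (right) over 5 groups of P11 horizontal cells ordered by their level of Nnat, Gap43 and Marcksl1 (x axis), all cells of the rule included. Tubb2b and Marcks are higher and Adarb2 lower at each step, while most of the difference of Rbfox1 lies in the last step.

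Genes listed for immature neurons and neurite growth leaned to the high cells. Of 41 listed genes 31 entered, 5 were at least 1.5-fold higher and 0 lower, and 27 (87.1%) had a ratio above 1. Of all 3685 genes 0.516% were so much higher and 54.1% had a ratio above 1. The list was chosen with earlier results of these data known, so the shares of all genes are no independent gauge for it. The list's median log2 ratio was 0.19, against 0.02 over all genes, and 0.20 with 4 genes higher when cells of other classes were left out. Beside the 5 described above, Tubb3, the neuronal beta tubulin, stood at 341 CPM in high cells and 255 CPM in 0-UMI cells (ratio 1.34, 1.23 to 1.46), and Stmn2, a stathmin of growing axons, at 1373 and 1049 CPM (1.31, 1.25 to 1.37). Basp1, a growth cone membrane protein, stood at 1487 and 1223 CPM (1.22, 1.17 to 1.27). Not all such genes differed. Dcx, the microtubule protein doublecortin, had a ratio of 1.08 (0.991 to 1.18), Tuba1a 1.06, Ncam1 1.01 and Dpysl2, a collapsin response mediator, 0.909 (0.844 to 0.979).

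Genes listed as higher in older horizontal cells leaned the other way. Of 21 listed, 17 entered, and 0 of these passed 1.5-fold in either direction. Of the 17, 3 (17.6%) had a ratio above 1, against 54.1% of all genes, and the median log2 ratio was -0.29, against 0.02 over all genes, or -0.25 without cells of other classes. Mgarp, a mitochondrial protein gene whose level over all horizontal cells was 161, 2643 and 5505 CPM at P6, P8 and P11, stood at 4770 CPM in high cells and 5793 CPM in 0-UMI cells (ratio 0.823, 0.806 to 0.841). Tkt, which encodes the sugar-phosphate enzyme transketolase, stood at 1107 and 1449 CPM (0.764, 0.731 to 0.799). Slc4a3, an anion exchanger, stood at 1931 and 2258 CPM (0.855, 0.826 to 0.885), and Lynx1, a modulator of acetylcholine receptors, at 248 and 331 CPM (0.751, 0.683 to 0.824). Rgs9bp, which anchors a G protein regulator at the membrane, had the lowest ratio of the 17, 0.712 (0.569 to 0.884). Vim, the filament protein vimentin, which was also higher at each later age, had a ratio of 1.002 (0.977 to 1.03). This list was drawn up with the ages of these libraries known, and counts of high and 0-UMI cells at P11 are part of the P11 level.

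Of 17 genes listed as earlier in horizontal cells 4 entered. Npy, a neuropeptide gene, stood at 5473 CPM in high cells and 3875 CPM in 0-UMI cells (ratio 1.41, 1.38 to 1.44), the neurofilament genes Nefl at 1051 and 723 CPM (1.45, 1.38 to 1.53) and Nefm at 483 and 359 CPM (1.34, 1.25 to 1.45), and Ank3 at 283 and 279 CPM (1.01, 0.925 to 1.11). Without cells of other classes the ratios of Npy, Nefl, Nefm and Ank3 were 1.45, 1.32, 1.29 and 0.981. Ank3 and Ank2 encode ankyrins, adaptors between membrane proteins and the spectrin skeleton. Ank2 stood at 1938 and 2157 CPM (0.898, 0.868 to 0.930). Ank1 did not enter, at 2.18 and 1.15 CPM.

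Genes of protein synthesis and respiration differed by little, and mostly in one direction. Of 83 genes whose symbols begin like those of cytosolic ribosomal proteins, 79 had a ratio above 1 and 0 reached 1.5-fold, with a median log2 ratio of 0.17. Of 78 genes of oxidative phosphorylation, 69 had a ratio above 1, with a median of 0.09 and 0 past 1.5-fold. Over all genes 54.1% had a ratio above 1. Synaptic adhesion genes were spread around 1, with 9 of 18 above it and a median of 0.03. Lrrc4c alone of them passed 1.5-fold. Vesicle release, glutamate receptor and GABA genes had 0 members past 1.5-fold among 20, 9 and 4 that entered, and medians of 0.06, -0.03 and -0.11. Among 12 genes of axon guidance and mosaic spacing 3 had a ratio above 1, with a median of -0.10. Of 10 horizontal cell transcription factor genes 5 had a ratio above 1.

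Summed markers of ganglion, amacrine and bipolar cells stood higher in high cells, led by genes that horizontal cells also express. The 10 ganglion markers summed to 1062 CPM in high cells (1021 to 1105) and 751 CPM in 0-UMI cells (730 to 773). Sncg, a synuclein gene that horizontal cells also express, made up 712 and 506 CPM of this. Without cells of other classes the sums were 953 and 751 CPM. The 15 amacrine markers summed to 8918 and 6733 CPM, most of it Npy, and 4 and 6 of the 15 were at 0. Without cells of other classes the amacrine sums were 9008 and 6721 CPM, so that difference stayed when those cells were left out. The 11 bipolar markers summed to 96.7 CPM (84.4 to 110) and 66.2 CPM (59.9 to 73.0), with 2 and 5 at 0 and Grik1, also made by horizontal cells, leading. Without cells of other classes the bipolar sums were 81.6 and 65.4 CPM. Rod markers stood at 13.9 and 12.5 CPM, cone markers at 2.18 and 1.64 CPM, and microglial markers at 4.79 and 2.30 CPM. The part of such cells in the ratios was not tested beyond leaving them out.

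Sex-linked genes differed a little between the groups. Xist, the RNA of the inactive X chromosome, stood at 358 CPM in high cells and 298 CPM in 0-UMI cells (ratio 1.20, 1.11 to 1.31). The Y-linked genes Ddx3y and Eif2s3y had ratios of 0.895 (0.732 to 1.09) and 0.809 (0.657 to 0.990). The library held cells of both sexes, and how many animals gave them is not given in the sources used here, so cells of different animals cannot be told apart. The part of animal differences in the ratios was not tested. Over all horizontal cells, thinned, Xist stood at 563, 0 and 308 CPM at P6, P8 and P11, and Ddx3y at 31.9, 87.5 and 69.6 CPM. The P8 library thus differed from the P6 and P11 libraries in sex as well as in age.

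The ratios also followed the length of the gene. With the genes in 5 equal groups by genomic span, the median log2 ratio was 0.10 for the shortest, whose median span was 4.02 kb, then 0.06, 0.02 and -0.04, and -0.11 for the longest, with a median span of 191 kb. The 19 higher genes had a median span of 11.6 kb, the 15 lower genes 198 kb and all genes 27.4 kb. Malat1, the nuclear RNA, had a ratio of 0.782 (0.773 to 0.791). Cells were also split into 3 equal parts by their Malat1 share. In the middle part, with 153 high and 397 0-UMI cells and median Malat1 shares of 1.92% and 1.898%, the medians of the 5 span groups were 0.05, 0.03, 0.00, -0.04 and -0.03. In these cells Tubb2b had a ratio of 2.03 (1.73 to 2.39), Marcks 2.53 (1.93 to 3.31) and Tmsb10 1.56 (1.38 to 1.75), while Tecrl had 0.756 (0.583 to 0.972), Slc24a2 0.781 (0.649 to 0.935) and Adarb2 0.677 (0.582 to 0.785). Genes of both directions came closer to 1, genes of both kept their values, and some higher genes moved away from 1. Rbfox1 had 4.07 (2.90 to 5.76), Lrrc4c 2.04 (1.59 to 2.60) and Mgat4c 1.99 (1.48 to 2.66). Cells of other classes were not left out of this part. Selenom had 1.16 (0.810 to 1.65), Arhgdig 1.24 (0.876 to 1.73) and Cd200 1.43 (1.04 to 1.97), short of 1.5-fold, while Frmpd4 had 0.595 (0.446 to 0.784), Ppp1r1b 0.593, Ankrd27 0.597, Arhgef26 0.597, Sfxn5 0.627 and Arhgap15 0.648. The list of immature neurons kept a median of 0.21 and that of later horizontal cell genes -0.25. The ribosomal median was 0.07, and that of respiration 0.01. Of 18 synaptic adhesion genes 14 had a ratio above 1, with a median of 0.14 and 3 at least 1.5-fold higher. Of all 3703 genes that entered in this part, 51.85% had a ratio above 1 and 1.107% were so much higher.

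**Figure D5:**
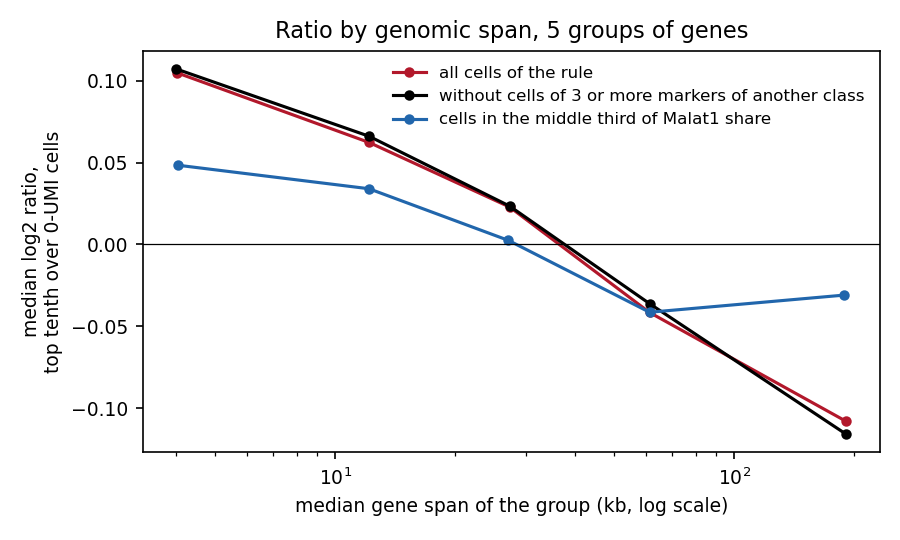
Median log2 ratio of high over 0-UMI cells (y axis) in 5 groups of genes by genomic span (x axis, median span in kb, log scale), for all cells (red), without cells of other classes (black) and for cells in the middle part of 3 by Malat1 share (blue). The slope from 0.10 to -0.11 is nearly the same without cells of other classes and is flatter, from 0.05 to -0.03, at equal Malat1 share.

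The same ranking was carried out in the P8 and P6 libraries, which had no part in choosing the P11 cells. As 47 and 7 cells there had no UMI of the 3 genes, the lowest 10% of cells served as the comparison, so the contrast differed from that at P11. Cells of other classes were kept in both libraries. At P8, 301 high and 301 low cells gave 117 of 3519 genes at least 1.5-fold higher (3.32%) and 267 lower (7.59%). At P6, 622 and 622 cells gave 34 of 3833 genes higher (0.887%) and 87 lower (2.27%).

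Of the 19 genes higher at P11, 11 were also at least 1.5-fold higher at P8, which is 57.9% of the P11 genes and 9.40% of the P8 genes, and 9 were so at P6 (47.4% and 26.5%). All 19 entered in both libraries, and 18 and 17 had a ratio above 1, as had 53.0% and 51.8% of all genes. Of the 15 lower genes, 8 and 9 entered, all with a ratio below 1, and 8 and 6 were at least 1.5-fold lower. Tubb2b had a ratio of 2.01 at P8 and 1.66 at P6, Stmn1 3.19 and 2.22, Tmsb10 2.06 and 1.61, and Marcks 1.84 and 1.33. Rbfox1 had 3.62 and 1.7. Lrrc4c, in contrast, had 0.963 and 0.839 and Npy 1.08 and 1.10.

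The lists leaned the same way in the younger libraries. The immature neuron list had a median log2 ratio of 0.43 at P8 and 0.28 at P6, and the later horizontal cell list -0.68 and -0.53. Mgarp had a ratio of 0.384 at P8 and 0.327 at P6, against 0.823 at P11. Over all genes that entered in both, the log2 ratios at P11 went with those at P8 with a Pearson r of 0.618 (3299 genes) and with those at P6 with 0.586 (3388 genes), across genes, which are not independent replicates. In these libraries the groups also differed in quality. At P8 the high cells had a median of 18785 UMIs and 0.713% Malat1, against 21127 UMIs and 1.79% in the low cells, and at P6 10843 UMIs and 1.57%, against 12712 UMIs and 2.15%. Without cells of 3 or more markers of another class, 2959 of 3004 horizontal cells would remain at P8 and 6053 of 6214 at P6. No ratio was taken without them there. The part of such cells, of depth and of Malat1 share in these ratios was not tested.

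The leading genes of the high cells were also those of younger cells, but genes lower at the later age were not in general higher in them. Over all horizontal cells, thinned, Tubb2b stood at 1314, 990 and 224 CPM at P6, P8 and P11, so the 372 CPM of the high cells lay above the P11 average and below the P8 average. Stmn1 stood at 615, 374 and 153 CPM, against 234 CPM in high cells, and Tmsb10 at 1655, 1324 and 420 CPM, against 643 CPM. Age and sex cannot be told apart between the other 2 libraries, as P8 horizontal cells had no Xist count after thinning. Between these libraries, 239 of 3686 genes (6.48%) were at least 2-fold lower at P8 than at P6, and 199 of them entered at P11. Of these 2 were at least 1.5-fold higher in high cells, 2 were at least 1.5-fold lower, which is 1.01% each, and 49 (24.6%) had a ratio above 1, with a median log2 ratio of -0.12. Over all genes these shares were 0.516%, 0.407% and 54.1%, and 57.6% of the genes within 2-fold between P8 and P6 had a ratio above 1. The age-lowered genes were long, with a median span of 401 kb, and in cells of like Malat1 share their median was 0.01. Among genes of span at or above the median, 24.5% of 196 age-lowered genes and 40.35% of 1497 others had a ratio above 1. The medians of these long genes were -0.12 and -0.04, and 0.01 and -0.03 in cells of like Malat1 share.

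Among the 19 genes higher in P11 high cells, 15 had a lower level at P8 than at P6 (78.9%) and 6 were lower by at least 1.5-fold (31.6%), while 49.9% and 15.2% of all genes were. Of the lower genes, 9 of 10 were lower at P8, but these were mostly long genes, with a median span of 198 kb over the 15. Of all genes of span at or above the median 71.5% were lower at P8, and of shorter genes 29%. Across 3441 genes the log2 ratio of high over 0-UMI cells went with that of P8 over P6 with a Pearson r of 0.23, which was -0.01 among the 1747 genes of span below the median and 0.16 among the 1693 longer ones. Genes lower at P8 than at P6 were thus found on both sides of the comparison at P11, and the part of gene span in this was not tested.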

How the data were processed

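The authors deposited raw UMI counts per gene and barcode for each library, made on mm10 with Cell Ranger 7.1.0, per the submitters' processing notes. Which annotation release was used, and if introns were included, is not given in the sources used here. Of 32285 features, 32158 had a position in GENCODE vM21 of the same build. Cells and the 20 gene lists, with 13 lists for other cell classes, were chosen with earlier results of these data known. Cells were thinned to 5000 UMIs without replacement and counts summed per group. Ratios carry exact conditional binomial intervals, levels exact Poisson and shares exact Clopper-Pearson intervals. Named genes were the 12 highest and 12 lowest ratios among genes with a mean of at least 50 CPM, without the 3 ranking genes, shared symbols, mitochondrial, ribosomal, hemoglobin, Xist, Tsix, Y-linked and provisional genes, plus up to 2 members each way of each list past 1.5-fold, Ank1 to Ank3, 5 horizontal cell genes and Blcap. Scrublet (scanpy 1.11.5) marked 18 of 4943 barcodes (0.364%) by its own threshold, too few to have worked. The 230 barcodes that met a score limit set at an expected 3.95%, ties included, were left out in an alternative only. Steps were tested on simulated counts. Python 3.11.15, numpy 2.4.6, scipy 1.17.1 and edgeR 4.0.16 (TMM scaling only) were used. Other settings numbered 23, with 2 more chosen after seeing the data.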

Additional observations from a re-analysis of the deposited data

How the results depend on the processing

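No paired analysis was possible because each age had 1 library, and for the same reason no replicate could be left out. The counts of genes higher and lower in high cells, 19 and 15, and of age-lowered genes higher in them, 2, depended on the limits set. With a minimum of 20 CPM they were 60, 71 and 11, with 100 CPM 11, 10 and 0, and with none 2758, 3303 and 18. For the top 5% of cells they were 41, 38 and 9, for the top 20% 11, 4 and 1, at no more than 5% mitochondrial UMIs 31, 26 and 9, and in the middle part of 3 by Malat1 share 41, 41 and 9. At 15000 UMIs or more a cell they were 4, 1 and 0. Against all other horizontal cells, 12 were higher and 3 lower. Ranking on the thinned counts took 1492 high cells by ties and gave 0 in each. Lower genes numbered 8 from unthinned sums and 5 without Nnat or without Gap43 in the ranking. Age-lowered genes higher numbered 7 from unthinned sums, 5 at 10000 UMIs, 5 with 0-UMI cells weighted by depth, 1 with all 3 horizontal factors required and 0 without cells of 2 or more other-class markers. They numbered 1 under each alternative chosen after seeing the data, namely without cells of 3 or more other-class markers, and without cells of 5 UMIs of Rbpms and Slc17a6. The cause was not tested. TMM and median-of-ratios scaling moved all log2 ratios by -0.02 and -0.03.

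Of 625 ratios of the 25 named genes past 1.5-fold, 478 stayed within the counting interval, 147 moved and 0 turned round. Tubb2b ranged from 1.41 to 2.35, Marcks from 1.36 to 2.75, Tmsb10 from 1.30 to 2.05 and Adarb2 from 0.514 to 0.812, each nearest to 1 when the ranking used thinned counts. Some list medians changed sign. The GABA median was 0.0427 from unthinned sums, 0.0217 from means over cells, 0.022 at 10000 UMIs, 0.559 with no minimum, 0.0619 for the top 5%, 0.00538 without Gap43 and 0.0138 in the middle part by Malat1 share. There the medians were also 0.0146 for axon guidance, 0.0108 for nuclear RNA and 0.00906 for age-lowered genes. Axon guidance was at 0.226 with no minimum, sex-linked genes at 0.266 with 100 CPM and at 0.0257 without Nnat, and the injury list at -0.0737 with the thinned ranking. Cells of 5000 UMIs limit every value here by its counting error.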
